A study of Mus musculus with 12 samples.

Results

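The transcripts of 8 members of the serpin family were examined in mouse embryonic fibroblasts (MEFs), namely Serpina3g, Serpina3n, Serpinb6a, Serpinb8, Serpinb9, Serpinb9b, Serpine2 and Serpinf1. They were taken by symbol from 46765 gene names in the 2 expression tables of the study, in which 59 other serpins reported here were also named, and each of the 8 had an entry in both tables. They had been picked because of how they behaved in these same comparisons, so that no p-value is given for their own changes and counts of them past a threshold are given for scale only. The MEFs came from C57BL/6 embryos at embryonic day 13.5 and formed an immortal line by serial passage without an introduced oncogene. In the first experiment, 2MUT cells carried a retroviral cDNA of a cancer-associated hotspot mutant of human IDH2 with a FLAG tag, and Control cells carried the same vector without it. Both were puromycin-selected pools, so each of these groups stands for a single transduced population. In the second experiment, MEFs for which no vector is named received 300 µM of octyl-(R)-2-hydroxyglutarate, a cell-permeable form of the metabolite that mutant IDH makes, for 24 h (2-HG(+)), or no 2-HG (2-HG(-)). The labels name DMSO as the vehicle of 2-HG(-). Each of the 4 groups had 3 libraries.

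Serpins are mostly inhibitors that trap a protease. The protease cuts an exposed bait loop, the reactive centre loop, and is then dragged across the serpin and held there in a distorted form. The hinge at the start of the loop must slide into a beta-sheet for this to happen, and in inhibitory serpins it is built of small residues, mostly alanine. Secreted serpins of fibroblasts act on plasminogen activators and thrombin and on the matrix, whereas clade B serpins stay inside the cell and guard it against cathepsins and granzymes. A few serpins, among them Serpinf1 and the collagen chaperone Serpinh1, inhibit no protease.

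The coding stretch of the hinge and of the loop that follows is shown for the 8 genes because it sets them apart as inhibitors and sets close relatives apart from each other. Each stretch of 75 bases was read from the transcripts of the GENCODE annotation of GRCm38, 5′ to 3′, and the 21 bases in capitals code for the hinge.
Serpina3g: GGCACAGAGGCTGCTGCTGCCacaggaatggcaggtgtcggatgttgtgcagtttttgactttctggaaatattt
Serpina3n: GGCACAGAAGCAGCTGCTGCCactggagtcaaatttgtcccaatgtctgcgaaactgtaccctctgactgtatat
Serpinb6a: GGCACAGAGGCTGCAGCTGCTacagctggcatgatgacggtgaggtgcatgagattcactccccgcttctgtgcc
Serpinb8: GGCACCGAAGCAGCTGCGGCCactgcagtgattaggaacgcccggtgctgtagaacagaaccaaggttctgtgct
Serpinb9: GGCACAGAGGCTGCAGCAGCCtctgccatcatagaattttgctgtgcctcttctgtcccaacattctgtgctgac
Serpinb9b: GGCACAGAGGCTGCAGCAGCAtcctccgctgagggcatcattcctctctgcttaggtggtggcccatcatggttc
Serpine2: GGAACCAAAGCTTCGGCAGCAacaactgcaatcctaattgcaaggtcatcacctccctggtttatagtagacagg
Serpinf1: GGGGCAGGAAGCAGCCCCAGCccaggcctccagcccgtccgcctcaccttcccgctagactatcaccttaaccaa

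These stretches lay on GRCm38 at chr12:104241072-104241146 (Serpina3g), chr12:104413448-104413522 (Serpina3n), chr13:33918119-33918193 (Serpinb6a, minus strand), chr1:107607173-107607247 (Serpinb8), chr13:33015699-33015773 (Serpinb9), chr13:33039802-33039876 (Serpinb9b) and chr11:75410215-75410289 (Serpinf1, minus strand). In these 7 genes the stretch fell in the last coding exon, while that of Serpine2 was split by an intron within chr1:79796860-79799492 on the minus strand. Serpinb9 and Serpinb9b shared 20 of the 21 hinge bases but only 13 of the 54 loop bases when set side by side without gaps. Serpina3g and Serpina3n shared 19 of 21 hinge bases and 27 of 54 loop bases. The hinge of Serpinf1 matched that of the other genes at only 5 to 8 of 21 bases.

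Most of the 8 genes lay in chromosome clusters of the family. Serpina3g (chr12:104236245-104241939) and Serpina3n (chr12:104406729-104414329) lay among 14 Serpina3 genes and pseudogenes that span 0.302 Mb of chromosome 12. Serpinb9 (chr13:33003250-33017957), Serpinb9b (chr13:33027416-33041884) and Serpinb6a (chr13:33917918-34002794) lay among 16 Serpinb genes and pseudogenes over 1.161 Mb of chromosome 13. Serpinb8 (chr1:107590006-107610484) was the last of 12 Serpinb genes and pseudogenes over 0.749 Mb of chromosome 1. Serpine2 (chr1:79794197-79861180) and Serpinf1 (chr11:75409769-75422701) lay outside these clusters.

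The libraries held 6472439 to 7313602 reads on genes in the first experiment and 14959318 to 18363768 in the second. Values are RPM, reads on a gene per 1000000 reads on genes in that library, so that 3 reads amounted to 0.41 to 0.464 RPM in the first experiment and 0.163 to 0.201 RPM in the second. Each transcript was read through a single short amplicon, so values were not scaled by length and levels of different genes are not compared. Fibroblast character was checked with 10 marker genes, 9 of which had an entry in the second experiment. Col1a1 had means of 5200 to 8624 RPM over the 4 groups. S100a4 had at most 3 reads in each library of the first experiment, Lum had at most 3 reads in each library of 2MUT and of both 2-HG groups, and Thy1 averaged only 2.76 RPM in 2-HG(-). In contrast, the summed level of 8 lymphocyte markers reached at most 0.551 RPM in any library. The mouse Idh2 amplicon gave 77.3 ± 5.5 RPM in Control and 49.6 ± 6.4 RPM in 2MUT cells (SD, n = 3 each), and whether it reads the human cDNA was not tested.

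In cells with the IDH2 mutant, Serpina3g and Serpinb8 were lower and Serpinb9 and Serpinb9b were higher than in Control cells, with no overlap between the groups. Serpinb6a and Serpinf1 overlapped between the groups, and Serpina3n and Serpine2 were at the edge of detection. Of the 8 genes, 6 reached a mean of 1 RPM and entered the fit over 11065 genes. Past an adjusted p of 0.05 in limma stood 2 of them as higher and 2 as lower, where 33.8% of all genes tested were called, 16.5% as higher and 17.3% as lower. Groups that did not overlap were seen in 47.5% of all genes tested. These shares are given for scale only, since the genes were picked from this comparison. The median log2 fold change of the 6 genes was -0.07, beside 0.01 over all genes tested.

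With 2-HG, Serpina3g, Serpinb8 and Serpinb9 were lower, and Serpinb9b and Serpinf1 were higher, again with no overlap between treated and untreated libraries. Serpinb6a overlapped. The same 6 genes reached 1 RPM among 10384 tested. Past the threshold stood 2 as higher and 3 as lower, where 32.8% of all genes were called, 16.1% as higher and 16.7% as lower, and 46.3% of all genes did not overlap between groups. Here too the shares are given for scale only. The median log2 fold change of the 6 was -0.41, beside -0.02 over all genes tested.

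**Figure D1:**
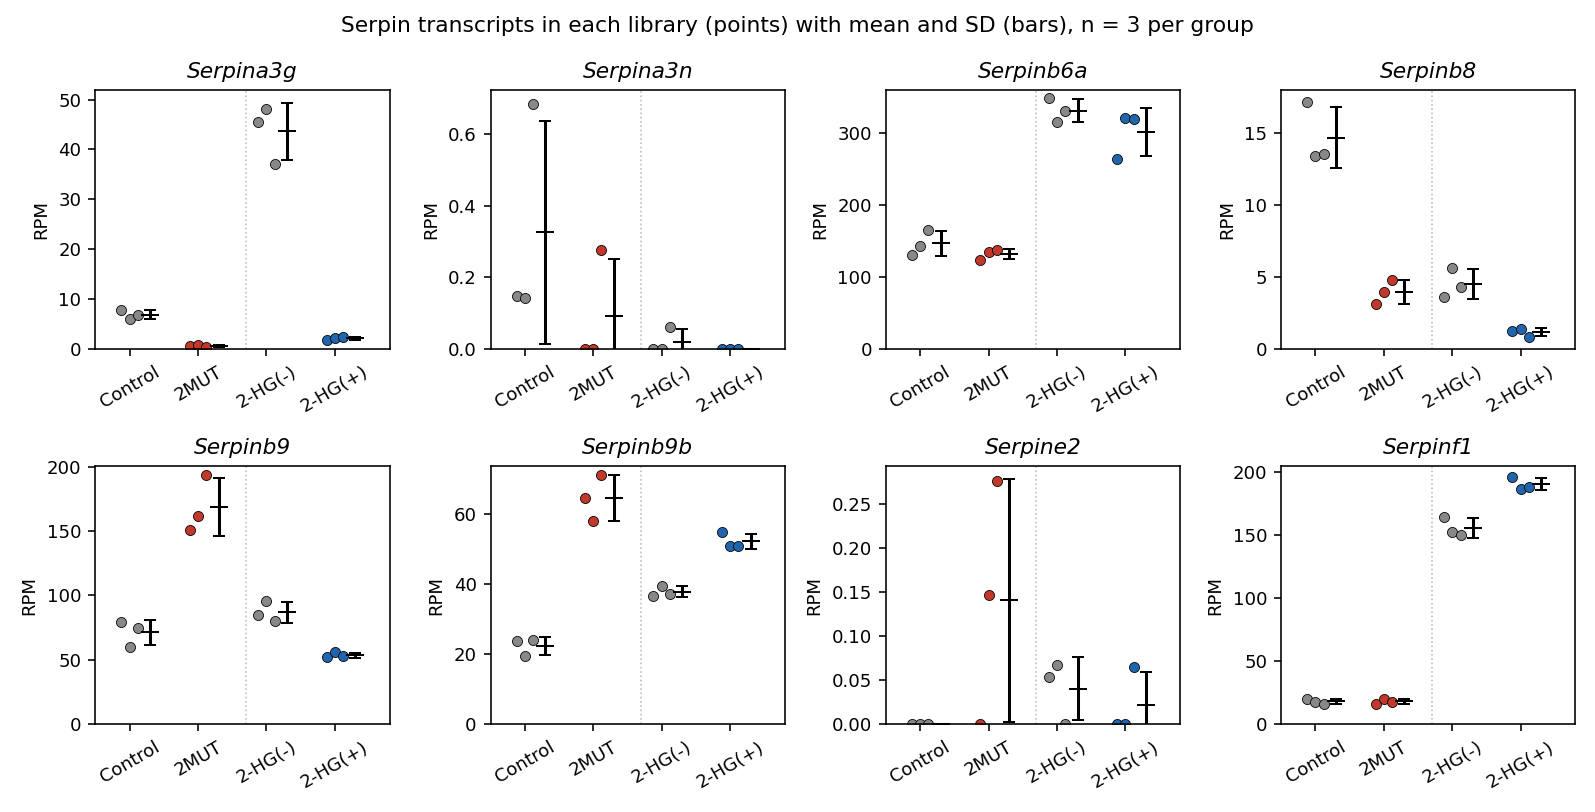
RPM (linear axis from 0, a scale for each gene) of the 8 serpin transcripts in each library. Points are libraries, horizontal marks and bars are the mean and SD of 3 libraries, and the dotted line separates the experiments, whose values come from separate tables. Serpina3g is lower in both treated groups, Serpinb9 is higher in 2MUT cells and lower with 2-HG, and Serpina3n and Serpine2 stay under 0.7 RPM.

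Serpina3g encodes an inhibitor that works inside the cell against cysteine cathepsins. In Control cells it was read at 7.69, 5.98 and 6.84 RPM, and in 2MUT cells at 0.464, 0.732 and 0.413 RPM. These values stood for 52, 42 and 50 reads in Control and only 3, 5 and 3 reads in 2MUT, so that the treated level lay at the edge of what this depth can measure. The mean was 12.75-fold lower in 2MUT cells, and on the log2(RPM + 1) scale the fold change was -2.35 ± 0.23 (SE), the 22nd largest fall of the 11065 genes. With 0.1 RPM added in place of 1 the log2 fold change was -3.47, and it was -3.64 in edgeR on the recovered reads. The gene passed the filter on low values through its Control level alone.

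With 2-HG the same transcript went from 45.5, 48.2 and 37.1 RPM without treatment to 1.85, 2.10 and 2.42 RPM. The highest treated library was far under the lowest untreated library. The mean was 20.5-fold lower, and the log2 fold change of -3.83 ± 0.15 was the largest fall of all 10384 genes tested on this scale. By the ratio of means the fall was larger for its neighbours Serpina3f, at 27.5-fold, and Serpina3h, at 28.5-fold, whose lower levels shrink more with the added 1 RPM. Those folds rest on only 6 and 10 reads over the treated libraries. The ratio of Serpina3f to Serpina3g reads overlapped between treated and untreated libraries. For Serpina3g 28, 35 and 37 reads remained in the treated libraries, so the residual level was measured rather than missing.

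Serpina3n encodes a secreted relative that inhibits granzyme B. It had 1, 1 and 5 reads in Control and 0, 0 and 2 in 2MUT, 0, 0 and 1 in 2-HG(-) and 0 in all 3 libraries of 2-HG(+). A difference was not detectable at this depth.

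Serpinb8 is an intracellular serpin whose human counterpart inhibits furin. It was read at 17.2, 13.4 and 13.5 RPM in Control and at 3.09, 3.95 and 4.82 RPM in 2MUT, a mean 3.72-fold lower. The log2 fold change was -1.67 ± 0.20. With 2-HG it went from 3.59, 5.62 and 4.26 RPM to 1.26, 1.38 and 0.849 RPM, a mean 3.86-fold lower with a log2 fold change of -1.34 ± 0.18. The linear folds were alike in both experiments, and the smaller log2 value with 2-HG comes with levels near the 1 RPM that was added before the logarithm.

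Serpinb9 inhibits granzyme B and protects cells from their own or a neighbour's cytotoxic granules. It was read at 79.2, 60.4 and 74.5 RPM in Control and at 150.5, 162.1 and 193.5 RPM in 2MUT, every 2MUT library lying above every Control library. The mean was 2.36-fold higher and the log2 fold change 1.23 ± 0.13. With 2-HG the direction was the opposite, from 85.2, 95.8 and 80.1 RPM to 52.4, 55.9 and 52.7 RPM, a mean 1.62-fold lower with a log2 fold change of -0.68 ± 0.10. The change in 2MUT cells minus that with 2-HG came to 1.91 ± 0.18 on the log2 scale.

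Serpinb9b is the neighbour of Serpinb9 and its closest relative by the number of identical transcript bases. By percent identity Serpinb9e (81.1%) and Serpinb9f (80.9%) were above it (79.1%). In Control Serpinb9b was read at 23.8, 19.4 and 23.9 RPM and in 2MUT at 64.6, 58.0 and 71.0 RPM, a mean 2.88-fold higher and a log2 fold change of 1.49 ± 0.14. With 2-HG it went up by less, from 36.6, 39.5 and 37.1 RPM to 54.7, 50.7 and 50.9 RPM, a mean 1.38-fold higher and a log2 fold change of 0.45 ± 0.10. Thus Serpinb9 and Serpinb9b were both higher with the mutant enzyme, but moved in opposite directions with the metabolite.

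Serpinb6a, whose human counterpart inhibits cathepsin G, overlapped between the groups in both experiments. It was read at 130.8, 143.3 and 165.6 RPM in Control and 124.1, 134.1 and 137.3 RPM in 2MUT, with overlapping groups and a log2 fold change of -0.15 ± 0.11. In the second experiment it was read at 348.3, 315.7 and 330.5 RPM in 2-HG(-) and 263.4, 321.1 and 320.0 RPM in 2-HG(+). The groups overlapped here as well, and the log2 fold change was -0.14 ± 0.11.

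Serpine2, also called protease nexin-1, inhibits thrombin and plasminogen activators at the cell surface. It had 0 reads in every Control library and 0, 1 and 2 in 2MUT, then 1, 1 and 0 in 2-HG(-) and 0, 0 and 1 in 2-HG(+). It therefore stayed at or under 3 reads in each of the 12 libraries, and no difference was detectable.

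Serpinf1, or pigment epithelium-derived factor, is a secreted serpin that inhibits no protease and binds the lipase Pnpla2. It was read at 19.8, 18.1 and 16.4 RPM in Control and 16.1, 20.4 and 17.9 RPM in 2MUT. The groups overlapped and the log2 fold change was -0.003 ± 0.157. With 2-HG it rose in level from 164.4, 153.0 and 150.0 RPM to 196.1, 187.0 and 188.7 RPM, a mean 1.22-fold higher with a log2 fold change of 0.29 ± 0.09. All treated libraries lay above all untreated ones, but the gap was small. The gene passed the threshold in only 1 of the 6 fits that left out a library, the one without the first 2-HG(-) library, so the count of higher genes above falls to 1 in the other 5.

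The starting levels of the same genes were unlike in the 2 experiments. Mean RPM in Control and in 2-HG(-) was 6.84 and 43.6 for Serpina3g, 18.1 and 155.8 for Serpinf1, 14.7 and 4.49 for Serpinb8, and 71.4 and 87.0 for Serpinb9. As labelled and described, the experiments differ in the vector, puromycin selection, vehicle, depth and entries of the table, and these cannot be told apart. In bulk RNA, fewer cells of a kind and less RNA per cell cannot be told apart either. Among marker lists of other cells, the endothelial list summed to at most 3.09 RPM and the epithelial list to at most 1.65 RPM in any library. In 2MUT cells the 7 macrophage markers with an entry, of 8 in the list, summed to 43.6 to 54.5 RPM against 20.5 to 23.9 RPM in Control. Most of this was Cd14, with means of 12.2 and 38.5 RPM. Lyz2 was also higher without overlap, at 2.47 to 2.75 RPM against 0.148 to 0.82 RPM, as was Csf1r, at 0.688 to 1.7 RPM against 0 to 0.57 RPM. Cd68 had means of 9.25 and 6.62 RPM, and Ptprc, Itgam and Fcgr1 had at most 3 reads in every library. With 2-HG the 8 markers summed to 25.7 to 27.0 RPM without and 22.3 to 27.1 RPM with treatment. The summed fibroblast markers ranged from 14410 to 16380 RPM in Control, 13010 to 13460 in 2MUT, 21600 to 23250 in 2-HG(-) and 15240 to 16260 in 2-HG(+). Within this list, mean RPM in Control and 2MUT was 144.3 and 27.9 for Col3a1, 80.4 and 24.2 for Thy1 and 3110 and 1265 for Vim, whereas it was 3967 and 5329 for Fn1 and 371.6 and 458.3 for Pdgfra. Without and with 2-HG it was 8653 and 4916 for Col1a2, 477.0 and 186.4 for Col3a1, 307.3 and 106.1 for Pdgfrb and 80.5 and 30.7 for Pdgfra. Thy1, at 2.76 and 5.23 RPM, was the only marker of this list with a higher mean with 2-HG. Their part in the serpin values was not tested.

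**Figure D2:**
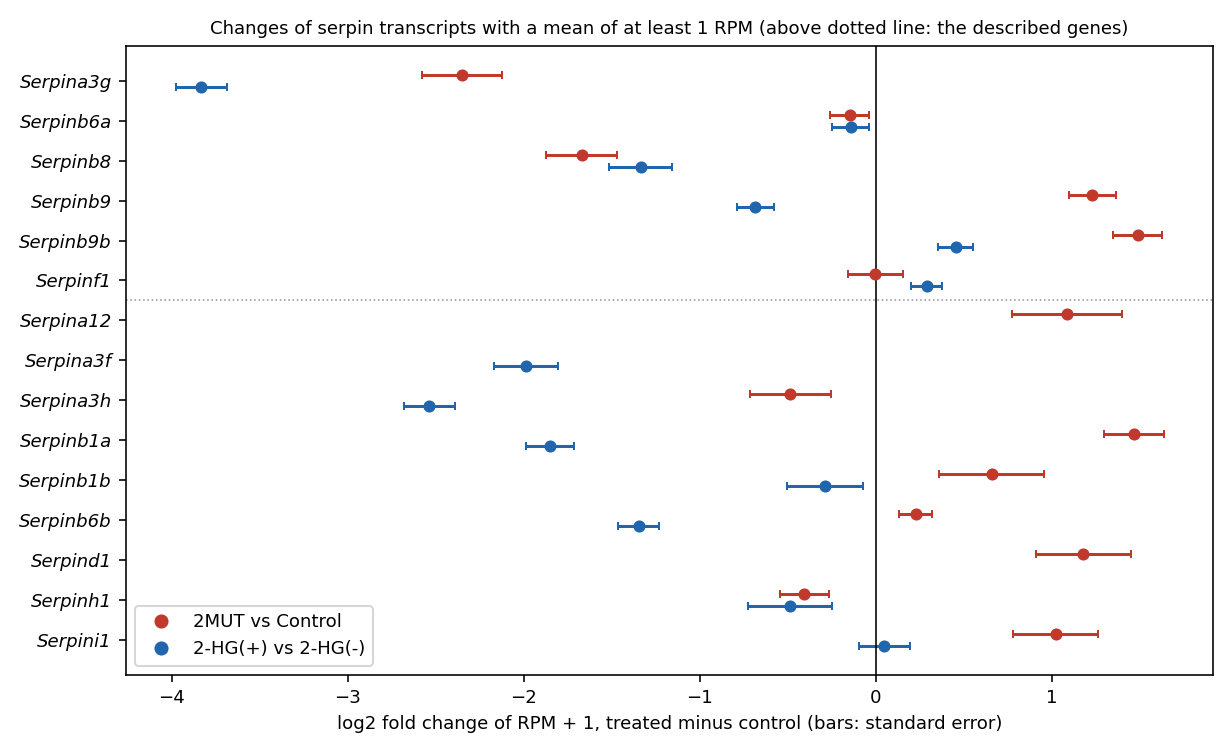
Log2 fold change of RPM + 1 (horizontal axis, treated minus control) with its standard error (bars) for each serpin reported here with a mean of at least 1 RPM, 2MUT against Control in red and 2-HG(+) against 2-HG(-) in blue, 3 libraries per group. Serpinb9 and Serpinb1a lie right of 0 in red and left of 0 in blue, and Serpina3g has the lowest value in both.

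The rest of the family shows which of these changes the chosen genes shared with their relatives. Of the 59 other serpins reported here, 58 had an entry in the first experiment, but 46 had at most 3 reads in every library and only 8 reached a mean of 1 RPM. In 2MUT cells 4 of these 8 rose and 1 fell in limma's test adjusted over all 11065 genes, where 16.5% of all genes tested were called higher and 17.3% lower, and their median log2 fold change was 0.84. Of the 4 that rose, 3 passed the filter on low values through their 2MUT level alone, so the count and the median are descriptions. In the second experiment 48 of them had an entry, 30 had at most 3 reads in every library and 7 were tested. With 2-HG 4 of these 7 fell and 0 rose, with a median log2 fold change of -1.35, where 16.7% of all genes tested were called lower and 16.1% higher. Of the 4 that fell, 2 passed the filter through their untreated level alone, and here too the count is a description. At an unadjusted p under 0.05 there were also 4, and edgeR and DESeq2 on the recovered reads called none of the 7 higher. Serpinb2 was not tested, its mean being under 1 RPM, but went from 12 untreated to 61 treated reads with no overlap. Other untested serpins separated the other way, namely Serpinb6c (54 to 16 reads), Serpina12 (19 to 3), Serpind1 (12 to 3) and Serping1 (5 to 0).

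Serpinb1a, an inhibitor of neutrophil serine proteases, rose from 6.27 ± 0.78 to 19.0 ± 1.1 RPM in 2MUT cells (SD, n = 3; limma adjusted p = 8.8e-05). With 2-HG it fell from 39.3 ± 3.9 to 10.2 ± 1.4 RPM (adjusted p = 1.4e-05). It thus moved up with the mutant enzyme and down with the metabolite, as Serpinb9 did in its values. The contrast of the 2 changes was 3.32 ± 0.20 on the log2 scale (adjusted p = 4.9e-08 over the genes tested in both).

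Serpina3f and Serpina3h, the neighbours of Serpina3g, also had lower values with 2-HG. Serpina3f went from 172 reads over the 3 untreated libraries to 6 reads over the treated ones (log2 fold change -1.99 ± 0.18, limma adjusted p = 5.2e-05). Serpina3h, annotated as a transcribed pseudogene, went from 300 to 10 reads (-2.54 ± 0.14, adjusted p = 3.2e-06). Both passed the filter through the untreated level alone, and with no filter the adjusted p was 8.2e-05 and 1.2e-05. The added 1 RPM shrinks these values, which were -4.15 and -4.32 with 0.1 added instead and -4.68 and -4.77 in edgeR. In 2MUT cells Serpina3h had a log2 fold change of -0.48 ± 0.23 and did not pass (adjusted p = 0.13), while Serpina3f had 1 read over all 6 libraries. The change of Serpina3h differed between the experiments by 2.05 ± 0.23 on the log2 scale (adjusted p = 1.2e-05), a contrast that was not fitted with no filter.

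Serpinb6b, a relative of Serpinb6a, had 231.3 ± 19.0 RPM in Control and 270.3 ± 10.2 RPM in 2MUT cells (SD, n = 3; limma adjusted p = 0.089). With 2-HG it fell from 52.1 ± 2.1 to 19.9 ± 2.1 RPM (adjusted p = 3.4e-05). The log2 changes differed by 1.57 ± 0.14 between the experiments (adjusted p = 1.8e-06).

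Among the serpins of low level, Serpini1 (neuroserpin, an inhibitor of tissue plasminogen activator) rose in 2MUT cells from 0.90 ± 0.12 to 2.90 ± 0.69 RPM (SD, n = 3; limma adjusted p = 0.0077), having passed the filter through its 2MUT level alone (adjusted p = 0.013 with no filter). With 2-HG its log2 fold change was 0.05 ± 0.14 (adjusted p = 0.83), and the difference was 0.97 ± 0.24 (adjusted p = 0.0059), a contrast that was not fitted with no filter. Serpind1, heparin cofactor II, went from 6 to 39 reads over 3 libraries (adjusted p = 0.0061), and Serpina12, or vaspin, from 6 to 36 (adjusted p = 0.020). On the log2 scale these changes were 1.18 ± 0.27 and 1.09 ± 0.31, or 2.70 and 2.68 with 0.1 added in place of 1. Both passed the filter through the 2MUT level alone, with adjusted p of 0.0035 and 0.017 when no filter was used, and they missed it when a 2MUT library was left out, any of the 3 for Serpind1 and the first or the third for Serpina12. Serpina12 also lost its call when the second Control library was removed (adjusted p = 0.064) and in the unmoderated test (adjusted p = 0.096). The count of 4 falls to 2 without the first or the third 2MUT library.

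Serpinh1, the chaperone of collagen folding, had 1260, 1327 and 882.7 RPM in Control and 889.9, 903.5 and 790.2 RPM in 2MUT cells. The groups overlapped through the third Control library. The log2 fold change of -0.40 ± 0.14 passed narrowly (limma adjusted p = 0.042), and the call was lost in 5 of 6 fits that left out a library (adjusted p up to 0.14), being kept only without the third Control library. With 2-HG the values were 1025, 950.8 and 1009 RPM untreated and 841.3, 442.1 and 960.8 RPM treated, the second treated library standing apart (adjusted p = 0.15). The log2 fold change of -0.49 ± 0.24 became -0.15 without that library (adjusted p = 0.44) and -0.70 without the third treated library (adjusted p = 0.044).

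Close relatives may share reads, since the amplicon positions were not used here. In GENCODE transcripts, 16.0% of all 50-base windows of Serpina3g and 4.6% of its 100-base windows recurred exactly in another gene on either strand, mostly in Serpina3h and Serpina3f. By the number of identical bases Serpina3f was also the closest relative, with 88.9% identity over the aligned transcript. This count favours long transcripts, and Serpina3h, of 1239 bases, could not lead it. For Serpinb6a the shares were 20.7% and 12.2%, mostly from the gene 1110046J04Rik, and for Serpinb9b 5.6% and 2.0%, mostly from the gene Gm36099. The strand of these matches was not recorded, and how the counting treated strand is not given in the sources used here. Serpinb9 shared 0.4% of its 50-base windows and none of 100 bases, although it was 79.1% identical to Serpinb9b. For Serpina3n the shares were 6.9% and 0.2%. Serpinb8 shared 0.2% of its 50-base windows, and Serpine2 and Serpinf1 shared none.

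The ratio of reads between relatives within a library does not depend on scaling. Serpina3h stood to Serpina3g as 0.308 to 0.5 in Control and as 1.8 to 4.67 in 2MUT libraries, the latter on only 11 Serpina3g reads in all. In the second experiment this ratio was 0.127 to 0.154 without and 0.0714 to 0.114 with 2-HG, the latter on only 10 Serpina3h reads in all, and a difference between these groups was not tested. Serpinb9b stood to Serpinb9 as 0.301 to 0.321 in Control, 0.358 to 0.429 in 2MUT, 0.412 to 0.463 in 2-HG(-) and 0.906 to 1.04 in 2-HG(+). Serpinb6b stood to Serpinb6a as 1.47 to 1.68 in Control and 1.90 to 2.17 in 2MUT, but as 0.152 to 0.164 in 2-HG(-) and 0.0582 to 0.0713 in 2-HG(+). For these 3 pairs the ranges of treated and control libraries did not overlap within either experiment. They did overlap for Serpina3f to Serpina3g, at 0 to 0.02 in Control and 0 in 2MUT, and at 0.0622 to 0.0929 in 2-HG(-) and 0 to 0.108 in 2-HG(+). The pairs hold genes picked from these comparisons, so this is a description. Among single genes tested, 47.5% and 46.3% did not overlap, and the share over other pairs was not computed.

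**Figure D3:**
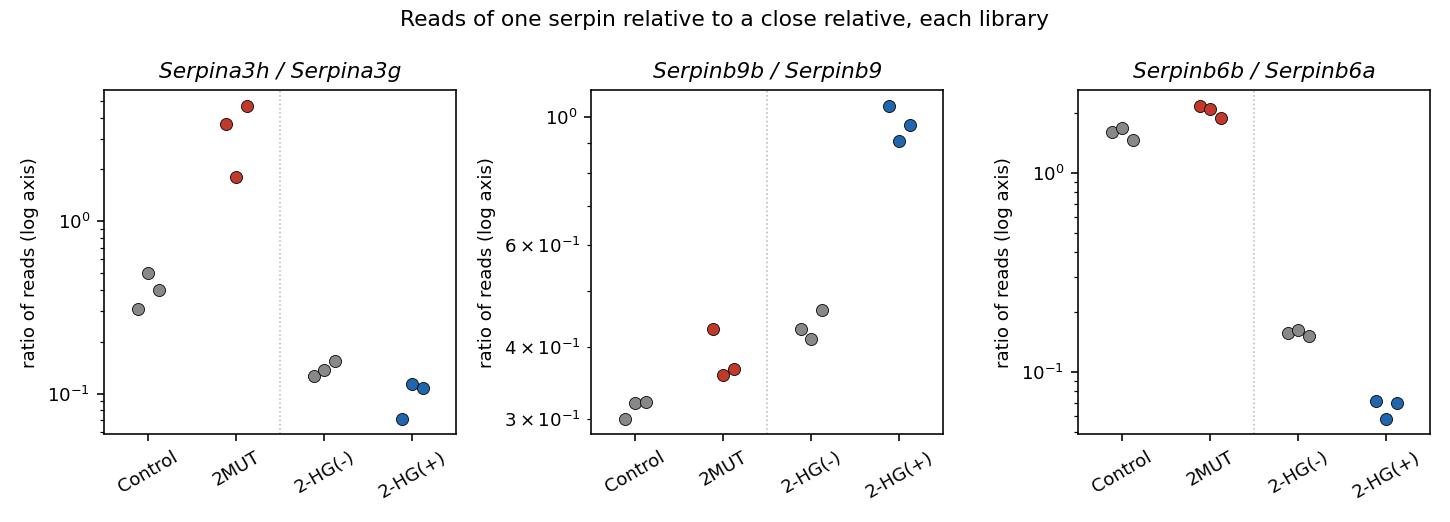
Ratio of reads (log axis) of a serpin to a close relative in each of the 12 libraries, for Serpina3h to Serpina3g, Serpinb9b to Serpinb9 and Serpinb6b to Serpinb6a. Points are libraries, and the dotted line separates the experiments. The Serpinb9b to Serpinb9 ratio is highest in 2-HG(+), where it reaches 0.906 to 1.04.

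The upstream sequences of Serpina3g, Serpinb9 and Serpinb9b are shown because Serpina3g had the largest fall of the 8 genes in both experiments and because the other pair, which are neighbours, diverged with 2-HG. They hold the 250 bases before the RefSeq start on GRCm38.p6, 5′ to 3′ on the plus strand, at chr12:104235897-104236146 (Serpina3g), chr13:33004291-33004540 (Serpinb9) and chr13:33027164-33027413 (Serpinb9b). Matches to 3 motifs of cytokine-driven genes, searched on both strands with the results known, are in capitals.
Serpina3g: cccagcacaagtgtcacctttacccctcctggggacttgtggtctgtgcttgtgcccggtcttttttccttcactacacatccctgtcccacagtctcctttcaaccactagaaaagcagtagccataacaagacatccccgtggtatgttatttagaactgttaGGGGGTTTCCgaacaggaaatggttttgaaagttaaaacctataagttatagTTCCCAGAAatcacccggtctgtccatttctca
Serpinb9: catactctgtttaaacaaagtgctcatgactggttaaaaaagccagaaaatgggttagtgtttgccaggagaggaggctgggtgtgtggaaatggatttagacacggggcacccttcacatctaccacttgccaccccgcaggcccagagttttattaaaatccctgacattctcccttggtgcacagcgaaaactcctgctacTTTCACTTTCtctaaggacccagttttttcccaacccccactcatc
Serpinb9b: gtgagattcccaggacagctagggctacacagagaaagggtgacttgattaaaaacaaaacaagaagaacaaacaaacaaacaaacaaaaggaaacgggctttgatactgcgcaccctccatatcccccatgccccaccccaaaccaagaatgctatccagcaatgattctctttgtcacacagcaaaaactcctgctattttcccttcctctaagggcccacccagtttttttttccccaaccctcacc

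The motifs were GAS (TTCNNNGAA, the form bound by STAT dimers), the core of the interferon-stimulated response element (GAAA, any 2 bases, GAAA) and a form of the NF-kappaB site (GGG, any 2 bases, TTTCC). Upstream of Serpina3g the NF-kappaB form began 85 bases and GAS 33 bases before the start. Serpinb9 held the response element core on the minus strand, 46 bases before the start, whereas these letters were not found in the window of Serpinb9b. Among the other genes, Serpina3n held an NF-kappaB form 171 bases before the start, and Serpinb6a held GAS at 77 bases and the response element core at 84 bases, overlapping each other. None of the 3 was found upstream of Serpinb8, Serpine2 or Serpinf1. Of 32851 RefSeq promoters of the same length, 7.02% held GAS, 2.98% the response element core and 1.41% the NF-kappaB form. These are matches of letters only.

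The proteases that serpins act on and the receptors that clear serpin complexes form the other side of the system. Of 40 such genes 17 were tested in the first experiment, and in 2MUT cells 5 rose and 0 fell in limma's test adjusted over all genes, where 33.8% of all genes tested were called. At an unadjusted p under 0.05 there were 6 in either direction, and edgeR and DESeq2 on the recovered reads also found none lower, while 1 was called lower when any of the Control libraries was left out. In the second experiment 16 were tested, and with 2-HG 5 rose and 4 fell, where 32.8% of all genes tested were called. The median log2 fold change was -0.08 and -0.05, beside 0.01 and -0.02 over all genes tested.

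The cysteine cathepsins are the known targets of Serpina3g. Ctsl rose in 2MUT cells from 755 ± 65 to 1197 ± 156 RPM (SD, n = 3; limma adjusted p = 0.00091), and its values of 1031 ± 128 and 1223 ± 126 RPM without and with 2-HG did not pass (adjusted p = 0.15). Ctsb rose from 1372 ± 25 to 1731 ± 51 RPM in 2MUT cells (adjusted p = 0.0066) and fell with 2-HG from 2784 ± 460 to 1840 ± 213 RPM (adjusted p = 0.013). The latter call was lost without the third 2-HG(-) library (adjusted p = 0.061) and in the unmoderated test (adjusted p = 0.087). Ctsh fell with 2-HG from 2.39 ± 0.48 to 1.23 ± 0.11 RPM (adjusted p = 0.017) but kept its call in only 3 of 6 fits with a library left out, losing it without the first 2-HG(-), the third 2-HG(-) or the third 2-HG(+) library. In 2MUT cells Ctsh did not pass (adjusted p = 0.31). The count of 4 lower genes with 2-HG was 2 without the first 2-HG(-) or the third 2-HG(+) library and 1 without the third 2-HG(-) library.

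Of the granule proteases that clade B serpins inhibit, Gzmb, Elane and Ctsg had at most 2 reads in every library of both experiments. Prtn3 had 4 to 10 reads in the libraries of the first experiment and did not pass (limma adjusted p = 0.78), and 1 to 4 reads in the second. Gzmm had at most 10 reads in any library and was not tested. The secreted protease Htra1 rose in 2MUT cells from 782 ± 37 to 1497 ± 87 RPM (SD, n = 3; limma adjusted p = 1.6e-05). With 2-HG its log2 fold change was -0.33 ± 0.19 and did not pass (adjusted p = 0.21), the first treated library standing apart at 601.2 RPM against 1021 and 1029 RPM in the others. Whether these changes of proteases differ between the experiments was not tested.

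The plasminogen activators are targets of Serpine2. Plau, the urokinase type, had 8.27 ± 2.60 and 5.02 ± 0.96 RPM in Control and 2MUT cells (SD, n = 3; limma adjusted p = 0.073) and 51.1 ± 7.6 and 45.5 ± 5.5 RPM without and with 2-HG (adjusted p = 0.41). Plat, the tissue type, had a log2 fold change of -0.17 ± 0.10 in 2MUT cells (adjusted p = 0.20). With 2-HG it passed at -0.27 ± 0.09 (adjusted p = 0.038), but the call was lost in all 6 fits that left out a library, with adjusted p of 0.051 to 0.11. Plaur, the urokinase receptor, rose with 2-HG from 23.2 ± 2.0 to 43.3 ± 4.1 RPM (adjusted p = 0.00058) and did not pass in 2MUT cells (adjusted p = 0.84). F2, prothrombin, had at most 1 read in any library. Its receptor F2r rose with 2-HG from 55.1 ± 2.1 to 72.2 ± 5.5 RPM (adjusted p = 0.017), a call lost without the third 2-HG(-) library (adjusted p = 0.071) or the second 2-HG(+) library. F2r did not pass in 2MUT cells (adjusted p = 0.30). F2rl1, a receptor opened by trypsin-like proteases, rose with 2-HG from 3.56 ± 1.09 to 8.47 ± 1.00 RPM (adjusted p = 0.0025).

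Receptors of the LDL receptor family take up serpin complexes. Vldlr rose in both experiments, from 61.2 ± 10.1 to 96.4 ± 8.0 RPM in 2MUT cells (SD, n = 3; limma adjusted p = 0.0036, or 0.059 in the unmoderated test) and from 5.32 ± 1.01 to 21.3 ± 4.3 RPM with 2-HG (adjusted p = 7.4e-05). Lrp8 rose with 2-HG from 12.8 ± 0.5 to 24.4 ± 1.5 RPM (adjusted p = 0.00046). In Control and 2MUT cells it had 31.4 ± 1.7 and 28.1 ± 1.1 RPM and did not pass (adjusted p = 0.38). Lrp1, the main receptor for such complexes, fell with 2-HG from 166.9 ± 18.1 to 105.2 ± 16.0 RPM (adjusted p = 0.0037, or 0.052 in the unmoderated test) and had 811.4 ± 122.3 and 706.7 ± 70.7 RPM in Control and 2MUT cells (adjusted p = 0.24). Lrp6 passed in 2MUT cells at a log2 fold change of 0.43 ± 0.14 (adjusted p = 0.039), but kept the call in only 1 of 6 fits with a library left out, that without the third Control library. With 2-HG Lrp6 did not pass, at -0.30 ± 0.13 (adjusted p = 0.12). Pnpla2, to which Serpinf1 binds, did not pass in either experiment (adjusted p = 0.47 and 0.69).

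**Figure D4:**
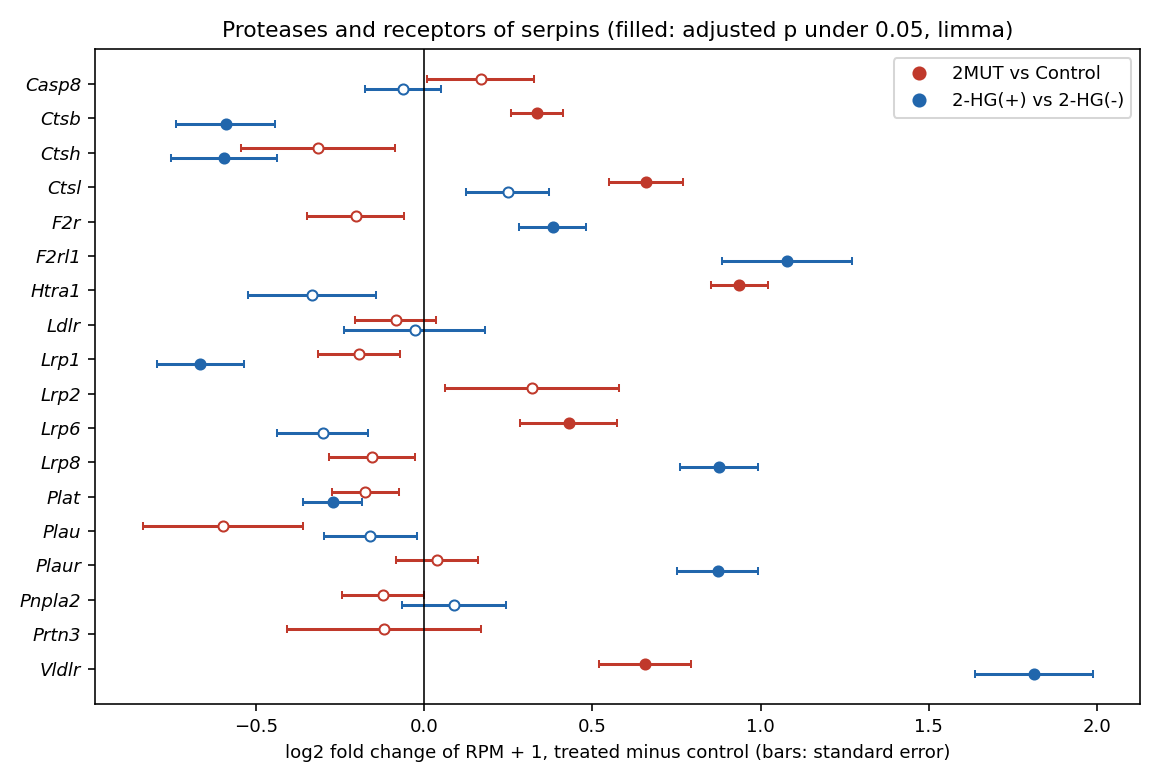
Log2 fold change of RPM + 1 (horizontal axis, treated minus control) with its standard error (bars) for proteases and receptors with a mean of at least 1 RPM, 2MUT against Control in red and 2-HG(+) against 2-HG(-) in blue, 3 libraries per group. Filled points passed an adjusted p of 0.05 in limma. Vldlr is filled and right of 0 in both comparisons, and Ctsb is filled on opposite sides.

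The genes whose pattern was most like each serpin were sought over 9612 genes and 12 libraries. The measure was the root mean square difference of log2(RPM + 1), centred within each experiment on its mean, and it is a description only. For Serpina3g the nearest were Oasl2 (difference 0.43), with log2 fold changes of -1.25 in 2MUT cells and -3.54 with 2-HG, and Postn (0.45), with -1.50 and -3.03. For Serpinb8 they were Fmo1 (0.13), with -1.74 and -1.32, and Itih2 (0.18). For Serpinb9 they were Fcor (0.15), with 1.00 and -0.73, and Kif26b (0.15), with 1.39 and -0.78. For Serpinb9b they were Thsd7a (0.12), with 1.44 and 0.27, and Gm14377 (0.12), with 1.54 and 0.50. Serpinb6a lay nearest to Prosc and Rai14 and Serpinf1 to Rap1gds1 and Mgat4b, with differences of 0.061 to 0.084. The match was loosest for Serpina3g, whose nearest gene differed by more than that of any of the other 5.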

How the data were processed

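RNA of MEFs was made into Ion AmpliSeq libraries. TMAP alignment to the AmpliSeq mouse reference and counting by the AmpliSeqRNA plug-in were done by the authors, who deposited RPM as a separate table per experiment (43280 and 23930 entries; 0 columns had no sample). Dividing each RPM value by what 1 read is worth in its library gave whole numbers for 100% of values (within 0.1 read), so reads and depth (given with the results) were recovered. Intervals of counting error are not given, since PCR reads are not independent molecules. The study's methods state triplicates but not whether the 3 libraries of a group were separate cultures, so p-values measure only the spread between these libraries, which may be technical. Same-group libraries differed by more than sampling noise (chi-square per degree of freedom 5.57 to 31.4).

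For each comparison limma 3.58.1 (R 4.3.3, trend option on) was fitted to log2(RPM + 1) in its 6 libraries, keeping genes whose mean reached 1 RPM. The added 1 RPM understates the log2 change of genes at low levels. Benjamini-Hochberg adjustment covered all genes tested, with a threshold of 0.05. The difference between the experiments, which share no libraries, was fitted over all 12. On simulated data with 198 changed genes limma recovered 177 in the first design (10986 genes) and 195 in the second (10339 genes). It called 4 and 16 unchanged genes. Of the 100 genes changed 2-fold it recovered 81 and 97. Recovery of changes under 2-fold, or with a larger share of changed genes, was not tested. Alternatives were a value of 0.1 in place of 1, no filter, a filter of 10 RPM, an unmoderated test, quantile normalization, a replicate block, edgeR 4.0.16 (3765 and 3546 calls) and DESeq2 1.42.0 on recovered reads, and each library left out.

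The 8 genes and all lists were chosen with earlier results of these data known. Named beside the 8 were other serpins that passed the threshold or had a mean of at least 10 RPM in a group, the 4 largest changes past the threshold in each direction among proteases and receptors with a fixed set of main ones, and the 2 genes nearest to each serpin. A serpin of the tables is not reported here. Promoters are from RefSeq, transcripts from GENCODE; all 8 genes matched both.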

Additional observations from a re-analysis of the deposited data

Results flagged for a closer look

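For 4 serpins outside the 8 described, the change in 2MUT cells differed from the change with 2-HG in a limma contrast over all 12 libraries. The change in 2MUT minus the change with 2-HG, on the log2 scale, was 3.32 for Serpinb1a, 2.05 for Serpina3h, 1.57 for Serpinb6b and 0.97 for Serpini1. Serpinb1a passed the threshold in opposite directions in the 2 comparisons. Each of the 4 stayed past the threshold in all 12 fits that left out a library, and Serpinb1b reached it in 3 of the 12. Serpina3h with 2-HG and Serpini1 in 2MUT passed the filter on low values only through the group where they were high, and the contrast was not fitted with no filter.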

How the results depend on the processing

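For the 6 of the 8 serpins that were tested, 64 of 72 values with a library left out and 89 of 93 values under the other settings kept their direction and their side of the threshold. The exceptions were in Serpinf1. A value of 0.1 in place of 1 and edgeR kept every direction of these values but made log2 changes of low genes over 1.5 times larger in some cases, as given with the results. The log2 fold change of Serpinf1 in 2MUT cells, near 0, turned to 0.0087 with quantile normalization and 0.0033 with DESeq2, and spanned -0.086 to 0.0755 with a library left out. The count of higher genes among the 8 with 2-HG fell from 2 to 1 with quantile normalization, with the replicate block and in 5 of 6 fits with a library left out (range 1 to 2). A filter of 10 RPM left 0 of the 8 as lower in 2MUT, since Serpina3g and Serpinb8 were no longer tested. Of the other serpins in 2MUT, 1 was higher with the filter of 10 RPM (2 to 4 with a library left out) and 0 were lower with no filter, with the unmoderated test and with quantile normalization (0 to 1 with a library left out), which is the call of Serpinh1. With 2-HG, 1 other serpin was higher with no filter, against 0, and 2 were lower with the filter of 10 RPM. The log2 fold change of Serpini1 with 2-HG ranged from -0.0071 to 0.1364 with a library left out and was -0.0032 without the third treated library. Of proteases and receptors, 3 were higher in 2MUT and 2 lower with 2-HG by the unmoderated test, and a library left out gave 0 to 1 lower in 2MUT and 1 to 4 lower with 2-HG. Except for the filter and leave-one-out, the cause was not tested. Over all genes the unmoderated test called 2244 genes in the first comparison, beside 3741 in limma, and 2237 in the second, beside 3405.

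The replicate numbers of the labels were tried as a block. Same-numbered libraries did not deviate together (r = 0.0708, 0.0293 and 0.0319 in the first experiment, -0.457, -0.158 and 0.0572 in the second). So few pairs cannot show whether libraries with the same number were handled together. The block gave 3898 calls in the first comparison and 2503 in the second. Serpina3n and Serpine2, and Serpina3g in 2MUT, were read at most 5 times in a library, so their values there carry a large counting error.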
